A study of Mus musculus with 8 samples.

Results

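The genes examined here encode the AP-1 transcription factors of the FOS and JUN families together with ATF3 and MAFF. They were taken as the 9 genes Fos, Fosb, Fosl1, Fosl2, Jun, Junb, Jund, Atf3 and Maff, by the gene name that the array files give each probe, out of 27745 gene names on the array. The 9 genes had 11 probes, and all 11 passed the filter on dim probes, which 14789 genes passed in all. Embryonic fibroblasts of the mouse (MEFs), cells cultured from embryos, lacked both copies of Lats2 (Lats2-/-) or were wild type (Lats2+/+), and their RNA was compared. LATS2 is a kinase of the Hippo pathway that phosphorylates the coactivators YAP and TAZ. Both genotypes are labelled C57BL/6J, were kept in DMEM medium with fetal bovine serum, penicillin and streptomycin, and received no treatment. There were 3 litters, numbered 112, 116 and 121, and each gave 1 cell clone of each genotype, so that every genotype in a litter rests on 1 clone (112-C and 112-K, 116-D and 116-H, 121-E and 121-C, with Lats2-/- named first). The age and sex of the embryos are not given in the sources used here. Both extracts of a litter were hybridised together on 2-colour Agilent arrays, of which there were 2 for litter 112, 2 for litter 116 and 4 for litter 121, with the dyes swapped between arrays.

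AP-1 factors are dimers of basic leucine zipper (bZIP) proteins. FOS proteins bind DNA only with a partner such as a JUN protein, whereas JUN proteins also pair with one another and with ATF proteins. Several of the genes are immediate early genes, which serum, growth factors or stress switch on for a short time without new protein synthesis, through MAP kinases and serum response factor. In fibroblasts the FOS and JUN families are known for the response to serum and for control of the cell cycle and of matrix-degrading enzymes.

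Transcripts of 2 of the 9 genes, Fos and Junb, were at least 2-fold higher in Lats2-/- than in Lats2+/+ MEFs in each of the 3 litters. Across the array 0.277% of 14789 genes, each represented by its brightest probe, did so. The 9 genes were chosen with earlier results of these data known, so such shares are not an independent comparison. The other 7 genes did not keep a 2-fold difference of 1 direction over the litters, and the ratios of 6 of them, Fosb, Fosl1, Fosl2, Jun, Atf3 and Maff, lay on opposite sides of 0 in different litters. No gene reached an adjusted p under 0.05 in limma's moderated test of the 3 litter ratios (0% of genes, and 0 of the 9), and the smallest adjusted p on the array was 0.634. At an unadjusted limma p under 0.05, 2 of the 9 genes were higher in Lats2-/- (Fos and Junb), against 4.14% of all genes, and 0 of the 9 were lower, against 3.45%. Those 2 also differed by at least 2-fold on average, as 0.838% of genes did in this direction. In RNA from a whole culture, fewer cells of a type and less RNA per cell cannot be told apart.

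The sequences upstream of the pair that was higher in every litter, Fos and Junb, are shown with those of Jun and Atf3, whose ratios changed sign between litters. Each is the stretch of 250 bases before the RefSeq transcription start in GRCm38.p6, read 5′ to 3′ on the gene's own strand. Capitals mark matches to any of the 5 motifs described after the sequences.
Fos, chr12:85473640-85473889, plus strand: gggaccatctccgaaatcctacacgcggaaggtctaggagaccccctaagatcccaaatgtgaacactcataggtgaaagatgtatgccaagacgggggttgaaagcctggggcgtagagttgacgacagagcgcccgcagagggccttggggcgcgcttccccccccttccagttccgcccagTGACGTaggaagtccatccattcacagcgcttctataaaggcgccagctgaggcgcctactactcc
Junb, chr8:84978749-84978998, minus strand: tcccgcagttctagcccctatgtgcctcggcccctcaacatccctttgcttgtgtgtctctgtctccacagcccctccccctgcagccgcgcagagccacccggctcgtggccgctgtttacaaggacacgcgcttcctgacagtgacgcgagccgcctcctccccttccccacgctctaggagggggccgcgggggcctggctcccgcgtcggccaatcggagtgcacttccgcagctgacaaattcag
Jun, chr4:95052223-95052472, minus strand: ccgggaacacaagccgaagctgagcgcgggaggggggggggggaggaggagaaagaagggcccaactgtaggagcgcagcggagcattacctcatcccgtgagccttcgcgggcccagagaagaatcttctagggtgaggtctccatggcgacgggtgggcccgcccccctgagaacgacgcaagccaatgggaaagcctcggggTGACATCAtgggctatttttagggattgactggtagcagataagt
Atf3, chr1:191183334-191183583, minus strand: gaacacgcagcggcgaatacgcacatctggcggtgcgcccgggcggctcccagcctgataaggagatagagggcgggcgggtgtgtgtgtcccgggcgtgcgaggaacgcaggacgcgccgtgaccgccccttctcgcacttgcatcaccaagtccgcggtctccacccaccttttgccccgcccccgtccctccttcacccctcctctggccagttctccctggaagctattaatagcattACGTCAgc
The table of promoters held 10 such windows for 8 of the 9 genes, with 3 for Maff. It had no entry for Fosl1. The motifs were searched on both strands. They were TGANTCA, the site bound by FOS and JUN dimers, and TGANNTCA, the longer site of JUN and ATF dimers with its middle letters left open. The others were TGACGT, the core of the cAMP response element, GGAATG, the site of the TEAD factors, and the CArG box of serum response factor. The core in TGACGT and the longer site TGANNTCA were added after the windows had been read. TGANTCA was in 0 of the 10 windows and in 6.75% of the 32851 windows in the table. TGANNTCA was in 4 of the 10, belonging to Jun, Jund and Maff, and in 11.9% of all windows. In Jun the match TGACATCA lay 45 to 38 bases before the start, and in Jund the match TGAAATCA lay 61 to 54 bases before it. TGACGT was in 3 of the 10, in Fos at 66 to 61 bases and in Atf3 at 8 to 3 bases before the start as well as in 1 window of Maff, and in 6.47% of all windows. The Maff match TGACGTCA, 29 to 22 bases before its start, held both of these motifs, which overlap there. GGAATG and the CArG box were in 0 of the 10, against 12.6% and 1.47% of all windows, and Junb held none of the 5 motifs. A match in this window is a description of its letters, and bases farther upstream were not searched.

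The 8 arrays had median intensities of 60.9 to 68.2 in green and 83.1 to 94.2 in red, and the log2 ratios of arrays of the same litter correlated with r of 0.917 to 0.990 over the kept probes. The targeted gene was examined on 4 probes. The upstream Lats2 probe gave log2 ratios of Lats2-/- over Lats2+/+ of -1.33, -1.05 and -0.56 in litters 112, 116 and 121. The other 3 Lats2 probes, which lie further downstream, were lower in Lats2-/- in litters 112 and 116 and higher in litter 121, with mean ratios of 0.04 to 0.07. Where the deleted part of Lats2 lies is not given in the sources used here. Neither the upstream probe nor the other 3 can therefore be read as a check of the label. Of 12 fibroblast markers, 10 were well above background in all 16 channels, while the macrophage genes Emr1 and Ptprc, the endothelial genes Cdh5, Pecam1 and Tie1, the muscle genes Des, Myh3 and Myog, the epithelial gene Tacstd1 and the glial gene Gfap were above it in none. Markers of other cell types were not all dim. The macrophage marker Cd14 and the neural marker Tubb3 were above background in all 16 channels, and in some channels so were 3 of 6 macrophage, 2 of 5 endothelial, 5 of 6 epithelial, 1 of 4 muscle and 3 of 5 neural markers.

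Fos, the founding member of its family and a textbook serum-induced gene, had the largest mean ratio of the 9. Its log2 signal in Lats2-/- was 12.25, 8.90 and 10.15 in litters 112, 116 and 121, and in Lats2+/+ it was 6.82, 6.71 and 8.91. The Lats2-/- extract was the brighter in every litter, but the genotypes overlapped, because Lats2+/+ of litter 121 lay just above Lats2-/- of litter 116. Fos log2 ratios were 5.43, 2.19 and 1.24 in the order of litters given, which is 43.2-fold, 4.55-fold and 2.37-fold, and all 8 arrays gave a positive ratio. Averaged over litters the difference was 2.95 ± 2.20 (SD, n = 3 litters). This is 7.75-fold, and limma gave it an unadjusted p of 0.035 and, after adjustment, 0.711. A spread between litters as large as that of Fos was seen in 0.875% of kept probes. The mean was 1.71 without litter 112, 3.31 with a background offset of 16 in place of 50, and 3.77 with the processed signals or the deposited value table. Fos lost the unadjusted call in the methods' t-test on the same ratios, where it had a p of 0.145, in limma's fit with no filter on dim probes, with a p of 0.053, and in limma's fit without litter 116, with a p of 0.080. The probe (A_52_P262219) covers chromosome 12, 86366053 to 86366112, plus strand, in mm8, the mouse build of the array files, and was printed as 10 spots.

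**Figure D1:**
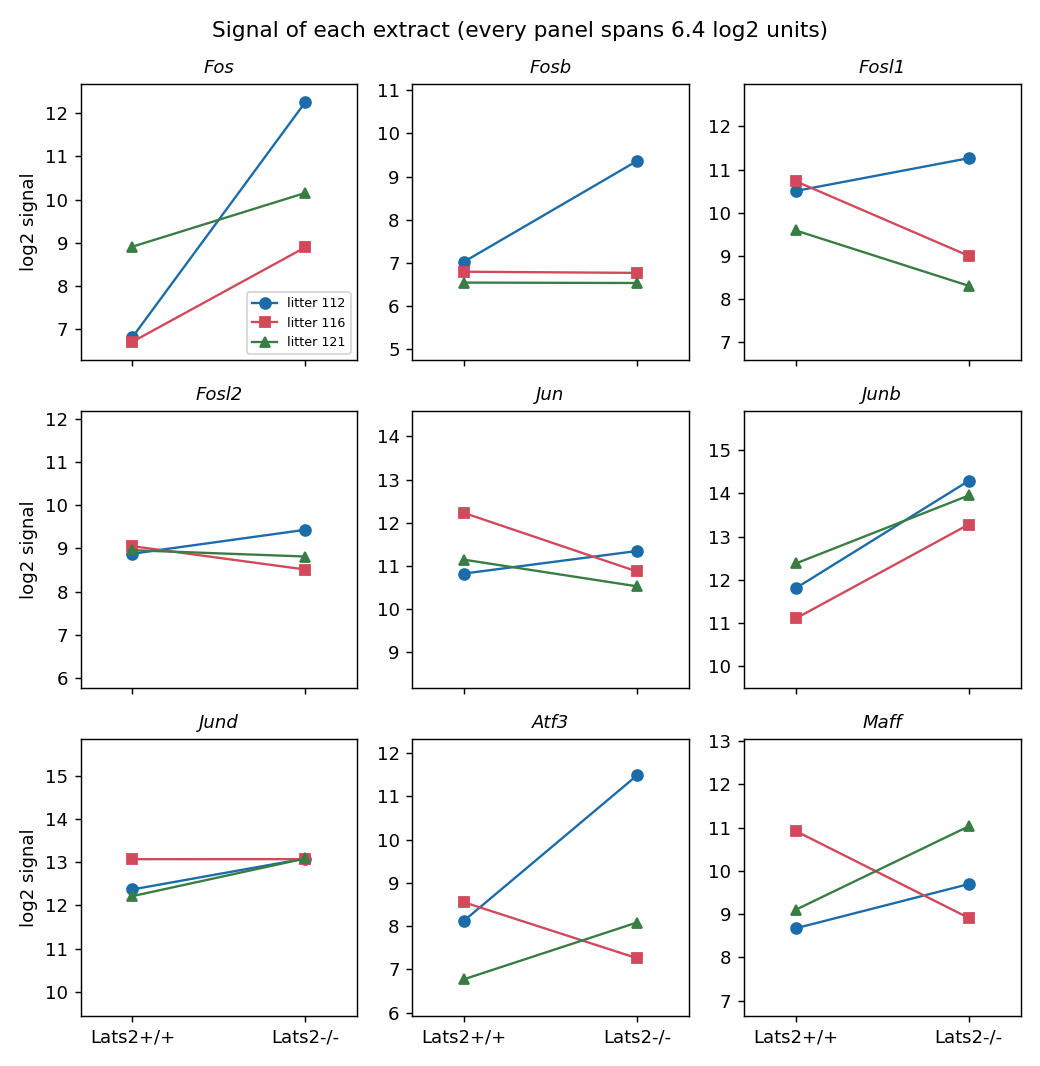
Log2 signal of each extract for the 9 genes, with lines joining the Lats2+/+ and Lats2-/- extracts of a litter, and each panel spanning the same range. All 3 lines climb for Fos and Junb, Fosb climbs in litter 112 alone, and lines run in both directions for Fosl1, Fosl2, Jun, Atf3 and Maff. Levels can be read between extracts of a panel and not between panels, which show different probes.

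The other 3 FOS family genes did not follow Fos over the litters. Fosb, a second serum-inducible member, had log2 signals of 9.36, 6.77 and 6.54 in Lats2-/- and of 7.03, 6.80 and 6.55 in Lats2+/+ for litters 112, 116 and 121. Only the Lats2-/- extract of litter 112 stood out, 5.02-fold above its littermate, and the other 5 extracts lay between 6.54 and 7.03. The Fosb ratios of litters 116 and 121 were -0.03 and -0.01, and the mean of 0.76 ± 1.36 (SD, n = 3 litters) became -0.018 without litter 112. The unadjusted limma p of Fosb was 0.256. Its mean was 0.88 with the offset of 16 and 1.25 with the processed signals or the deposited value table. Fosl1 encodes FRA-1, a member without the strong activation domain of FOS. Its log2 signal was 11.26, 9.01 and 8.31 in Lats2-/- and 10.51, 10.73 and 9.59 in Lats2+/+. Fosl1 ratios were 0.76, -1.72 and -1.28, so that it was 1.69-fold higher in the first and 3.30-fold and 2.43-fold lower in the others. They averaged -0.75 ± 1.32 (SD, n = 3 litters), and limma's unadjusted p was 0.255. Without litter 112 Fosl1 had a mean ratio of -1.50 and passed the unadjusted threshold together with the 2-fold size. Fosl2, which encodes FRA-2, had the mean ratio closest to 0. Its brighter probe (A_52_P484903) gave ratios of 0.55, -0.54 and -0.15, with an average of -0.04 ± 0.55 (SD, n = 3 litters), and its dimmer probe gave ratios between -0.14 and 0.02. The brighter probe had an unadjusted limma p of 0.869. Fosl2 signals of the 6 extracts lay between 8.51 and 9.43, with all 3 Lats2+/+ extracts inside the range of the Lats2-/- extracts.

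Junb was the 1 gene of the 9 that was at least 2-fold higher in every litter with no overlap between the genotypes. JUNB is a JUN protein that FOS pairs with and that often restrains JUN. Its log2 signal was 14.29, 13.28 and 13.95 in Lats2-/- and 11.81, 11.11 and 12.38 in Lats2+/+ for litters 112, 116 and 121. Every Lats2-/- extract was brighter than every Lats2+/+ extract, and the gap between the lowest of the former and the highest of the latter was smaller than the difference within any litter. The ratios were 2.48, 2.17 and 1.57, or 5.58-fold, 4.51-fold and 2.97-fold, positive on all 8 arrays. They averaged 2.08 ± 0.46 (SD, n = 3 litters), a 4.21-fold difference. The unadjusted limma p was 7.9e-04, and 0.634 after adjustment. A p as small was found for 0.106% of kept probes, and a spread between litters as large for 23.4%. Junb kept its unadjusted call when any 1 litter was left out, with means of 1.87 to 2.33, and in the methods' t-test it had a p of 0.016. Its other probe (A_51_P159194), whose target overlaps that of the first on chromosome 8 and so repeats it, gave ratios of 2.53, 2.06 and 1.48, averaging 2.03 ± 0.53 (SD, n = 3 litters). The probes cover 87867087 to 87867146 and 87867049 to 87867108 on the minus strand in mm8.

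The other JUN genes differed from Junb. Jun itself, the strongest activator of the family, had log2 signals of 11.35, 10.87 and 10.53 in Lats2-/- and of 10.83, 12.23 and 11.15 in Lats2+/+. It was higher in Lats2-/- in litter 112 with a ratio of 0.52, and lower in litters 116 and 121 with ratios of -1.35 and -0.62. The genotypes overlapped, and the average of -0.48 ± 0.94 (SD, n = 3 litters) did not pass the unadjusted threshold. Its limma p was 0.302. The Jun mean was -0.98 without litter 112, with a limma p of 0.037, and -0.047 without litter 116. Jund, whose product is abundant in resting fibroblasts and little induced by serum, is named Jund1 in the files. Its log2 signal was 13.08, 13.07 and 13.09 in Lats2-/- and 12.37, 13.07 and 12.22 in Lats2+/+. The 3 Lats2-/- extracts lay within 0.015 of one another, while the Lats2+/+ extracts spread over 0.85, and the lowest of the former was above the highest of the latter by 0.0021. The Jund ratios were 0.71, 0.0021 and 0.87, so that the genotypes were alike in litter 116, where 1 array was above 0 and the other below it. The average was 0.53 ± 0.46 (SD, n = 3 litters), or 1.44-fold. Its unadjusted limma p was 0.072. The Jund mean was 0.79 without litter 116, with a limma p of 0.011, and 0.36 without litter 121, with a limma p of 0.247. With Jund, 3 of the 9 genes had a ratio above 0 in all 3 litters, against 15.9% of all genes, and 0 of the 9 had a ratio below 0 in all, against 14.1%. Separation of all Lats2-/- extracts above all Lats2+/+ extracts was found for 2 of the 9 (Junb and Jund), against 3.24% of genes, and separation below for 0, against 3.01%.

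Atf3 and Maff showed the widest disagreement between litters beside Fos. Atf3 is a stress-induced factor that pairs with JUN proteins and often represses its targets. Its log2 signal was 11.49, 7.26 and 8.09 in Lats2-/- and 8.13, 8.55 and 6.77 in Lats2+/+. The Lats2-/- extract of litter 112 was far above the other 5, and in litter 116 the wild type was the brighter. Atf3 ratios were 3.36, -1.29 and 1.31, which is 10.2-fold higher, 2.45-fold lower and 2.48-fold higher in Lats2-/-. With an average of 1.13 ± 2.33 (SD, n = 3 litters), the spread between litters exceeded the mean. The unadjusted limma p of Atf3 was 0.316, and its mean was 0.0095 without litter 112. Maff encodes a small MAF protein that has no activation domain and pairs with other bZIP factors. Its log2 signal was 9.70, 8.91 and 11.03 in Lats2-/- and 8.67, 10.92 and 9.10 in Lats2+/+, with full overlap. Maff ratios were 1.02, -2.01 and 1.93, averaging 0.31 ± 2.06 (SD, n = 3 litters). The unadjusted limma p was 0.736. In litter 116 Maff was 4.02-fold lower in Lats2-/-, whereas in litter 121 it was 3.81-fold higher. Spreads between litters as large as those of Atf3 and Maff were seen in 0.649% and 1.12% of kept probes. Without litter 116 both genes passed the 2-fold size and the unadjusted threshold.

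**Figure D2:**
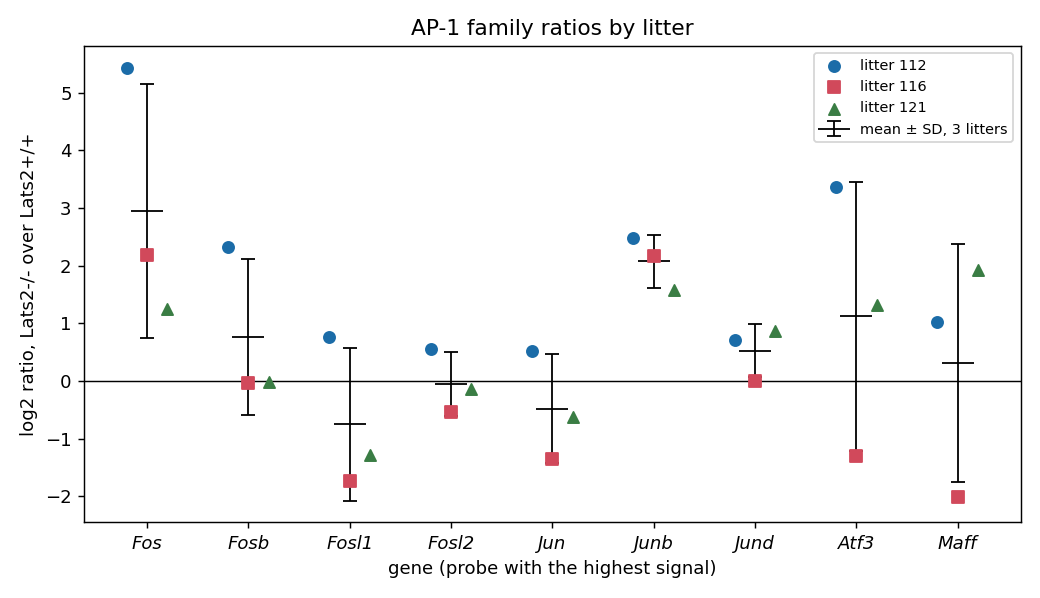
Log2 ratio of Lats2-/- over Lats2+/+ for each gene and litter, with the mean and SD of the 3 litters in black. Fos and Junb lie above 1 in every litter, Jund lies at or above 0, and litter 116 is the lowest litter for Fosb, Fosl1, Fosl2, Jun, Jund, Atf3 and Maff.

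Within a litter the arrays repeated one another closely for most of the brightest probes. For Fos the 2 arrays of litter 112 gave 5.33 and 5.53, those of litter 116 gave 2.16 and 2.21, and the 4 of litter 121 lay between 1.11 and 1.38. For Jun the 4 arrays of litter 121 lay between -0.62 and -0.61, and for Maff the arrays of litter 116 lay around -2.01 with an SD of 0.015. The SD between arrays of a litter was at most 0.16 for the brightest probes of Fos, Fosb, Fosl1, Jun, Junb, Jund, Atf3 and Maff, and at most 0.29 for that of Fosl2, whose ratio was the higher on the array with Lats2-/- in Cy5 in every litter. The other Junb probe (A_51_P159194) had SDs of 0.47, 0.33 and 0.33 in litters 112, 116 and 121. Its ratio was also the higher with Lats2-/- in Cy5 in every litter. These repeats are of the same extracts and say nothing of the spread between clones. Litters 112 and 116 were on 1 slide and litter 121 on another.

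**Figure D3:**
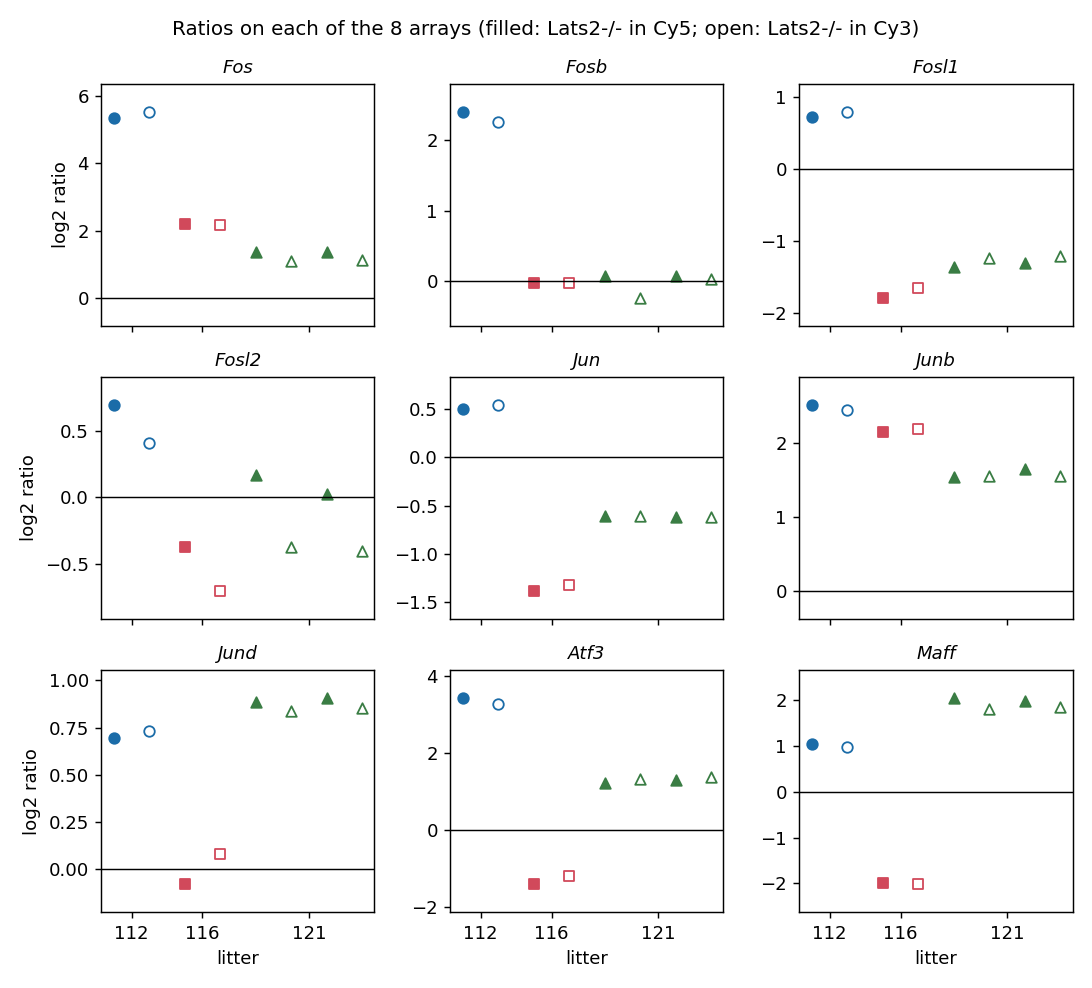
Log2 ratio of Lats2-/- over Lats2+/+ on each of the 8 arrays, grouped by litter, with Lats2-/- in Cy5 as filled and in Cy3 as open symbols and with an axis of its own for each gene. For Fos, Fosl1, Jun, Junb, Atf3 and Maff, filled and open symbols of a litter lie close together compared with the distance between litters. Those of Fos, for instance, lie at 2.16 and 2.21 in litter 116 against 5.33 and 5.53 in litter 112. For Fosl2 the symbols of litters 116 and 121 overlap. For Fosb those of litter 121, from -0.23 to 0.08, span those of litter 116.

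Counted by litter, the family had a different makeup in each. Ratios were above 0 for 9, 3 and 5 of the 9 genes in litters 112, 116 and 121, and for 7728, 7493 and 7524 of all 14789 genes. In litter 112, 5 genes (Fos, Fosb, Junb, Atf3 and Maff) were at least 2-fold higher, against 3.15% of all genes, with 0 at least 2-fold lower, against 1.46%. In litter 116 only Fos and Junb were at least 2-fold higher, 2 of the 9 against 5.55% of all genes, and 4 (Fosl1, Jun, Atf3 and Maff) were at least 2-fold lower, against 3.69%. In litter 121, 4 genes (Fos, Junb, Atf3 and Maff) were at least 2-fold higher, against 4.04%, and 1 (Fosl1) was at least 2-fold lower, against 3.23%. The median ratio of the 9 was 1.02, -0.54 and 0.87 in litters 112, 116 and 121, where the median of all genes was 0.02, 0.0053 and 0.0051. Fibroblast markers also differed between the genotypes by litter: the 12 had median ratios of 0.26, 2.22 and -0.95 in the same order, and the log2 of their summed signal ranged from 18.07 to 19.26 in Lats2-/- and from 18.52 to 19.29 in Lats2+/+. Summed macrophage markers ranged from 8.92 to 9.92 in Lats2-/- and from 9.21 to 11.09 in Lats2+/+, and summed neural markers from 9.87 to 10.30 and from 10.07 to 11.83. Of single markers, the macrophage gene Cd14 was lower in Lats2-/- in every litter, with ratios of -0.60, -1.64 and -0.74 and an unadjusted limma p of 0.019, while the other two macrophage genes that passed the filter on dim probes did not follow it, Csf1r with ratios of 0.04, 0.30 and -0.08 and Cd68 with 0.36, -0.32 and -0.16. Of the 12 fibroblast genes 8 had a mean ratio above 0, and 1, Postn, had an unadjusted limma p under 0.05, with ratios of 0.80, 2.55 and 0.67. Those with a mean ratio below 0 were S100a4 (-1.48), Pdgfra (-1.31), Thy1 (-0.66) and Vim (-0.39). In litters 112, 116 and 121, S100a4 had ratios of 0.15, -0.97 and -3.61 and Pdgfra had 0.90, 0.13 and -4.96. Thy1 had -0.38, 2.05 and -3.66, and Vim had 0.08, -1.19 and -0.07. The part of these markers in the results for the AP-1 genes was not tested.

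The genes that work with AP-1 were read from lists beside the family. Most of the other immediate early genes were, like Fos and Junb, higher in Lats2-/- on average (22 of 23 measured, where 7831 of all 14789 genes were). Among them 11 (47.8%) had an unadjusted limma p under 0.05 with a higher level in Lats2-/-, where 4.14% of all genes did, and 0 with a lower level. The list was chosen with earlier results of these data known, so these shares are not an independent comparison. The median ratio was 0.96, against 0.53 for the AP-1 family and 0.01 for all genes. Egr2, a zinc-finger factor induced by serum, had ratios of 5.85, 4.30 and 1.67 in litters 112, 116 and 121. The orphan receptor gene Nr4a1 had ratios of 3.73, 3.15 and 1.69, and Egr1 had ratios of 4.39, 2.93 and 0.81. Fos shared that order of the litters, with litter 112 the highest and litter 121 the lowest. Ier2 (mean ratio 1.54), Ctgf (1.47), a matricellular gene and known YAP target, and Arc (1.36) were the next by size of mean ratio among those past the unadjusted threshold.

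Among 28 kinases and regulators upstream of AP-1, 3 had an unadjusted p under 0.05, all higher in Lats2-/-, against 4.14% of all genes higher and 3.45% lower: Mapk3, which encodes ERK1, with a mean ratio of 0.54 ± 0.24, Srf, the serum response factor, with 0.46 ± 0.27, and Map2k7, a kinase of the JNK branch, with 0.36 ± 0.12 (SD, n = 3 litters). Their unadjusted limma p-values were 0.019, 0.038 and 0.032. None of the 3 reached 2-fold in any litter, whereas Elk3 and Mkl1, named after their values were seen, were at -1.16 in litter 116 and 1.15 in litter 121 without passing that threshold, and the median ratio of the list was 0.09. Of 18 other bZIP partners measured, such as the ATF, CREB and MAF genes, 0 passed the unadjusted threshold in either direction, and the median ratio was -0.03. With the shares of all genes just given, a count of 0 in a list of this length is near the background. Of 19 genes known as AP-1 targets, 2 were lower at that threshold, Mmp3 and Ccnd1, against 3.45% of all genes, and the median ratio was -0.18. Mmp3, the gene of stromelysin and a classical AP-1 target, had ratios of -0.49, -3.24 and -5.59, so it was lower in Lats2-/- in every litter while Fos was higher. Ccnd1, the gene of cyclin D1, had ratios of -0.39, -0.29 and -0.60. None of the genes in these lists reached an adjusted p under 0.05.

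**Figure D4:**
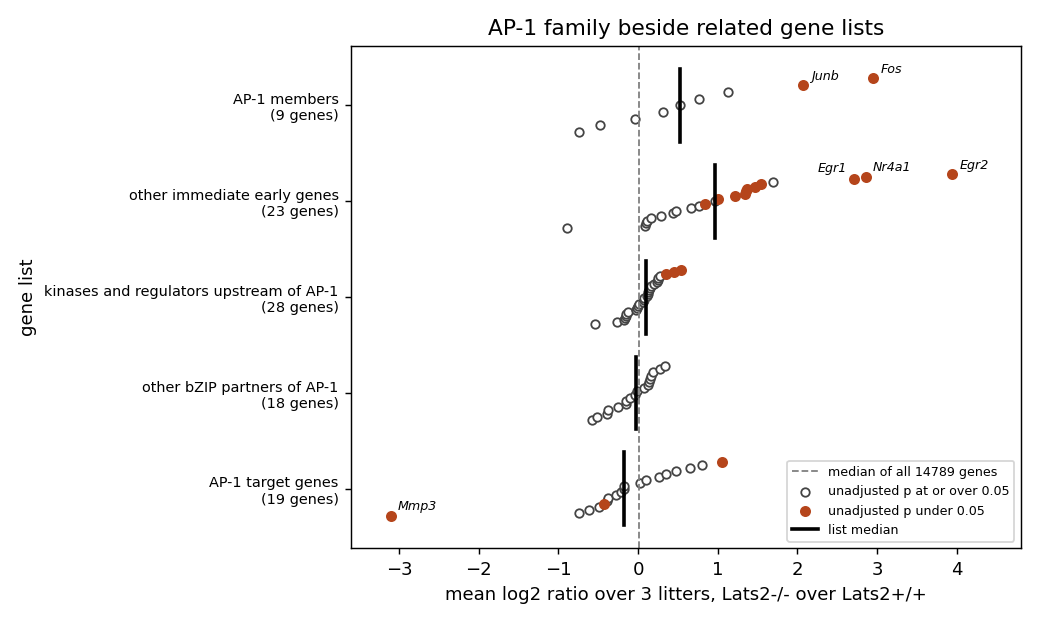
Mean log2 ratio over 3 litters for each measured gene of the AP-1 family and of 4 related lists, with filled points at an unadjusted limma p under 0.05, a black bar at the list's median and a dashed line at the median of all 14789 genes. Fos and Junb lie at 2.95 and 2.08, the list of other immediate early genes has its median at 0.96, and the other 3 lists have medians between -0.18 and 0.09.

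The pattern over the 6 extracts was compared between genes, as a description over samples that share litters and arrays. Among the 9 genes Junb was the most like Fos, with a Pearson r of 0.93 over the 6 log2 signals, followed by Fosb (0.67) and Atf3 (0.59). Jun and Fosl1 had r of -0.29 and -0.04 with Fos. Among 3145 other genes whose signal had an SD of at least 0.5, the 5 most like Fos were Sema3e (0.98), Btg2 (0.97), Pacs2 (0.96), Rhob (0.95) and 9330129D05Rik (0.95). Btg2 and Rhob are on the list of other immediate early genes. Most like Fosl1 were Abcb10 (0.99), Srxn1 (0.97), Abtb2 (0.97) and Mgst3 (0.97), and the family member most like Fosl1 was Fosl2 (0.77), with Fosb, Atf3 and Jun between 0.66 and 0.68.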

How the data were processed

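Total RNA of 6 MEF extracts, 2 genotypes from each of 3 litters, was hybridised on 8 arrays of Agilent design 14868. The authors scanned the arrays and used Agilent Feature Extraction, given as 10.7.3.1 by the file headers and as 10.5.1.1 in the submitters' processing notes. The deposited scanner files give spot and local background intensity on a linear scale in both channels, not normalized. They also hold processed intensity values and the log10 ratio of red over green, which per the file headers were already background subtracted and dye normalized. The series' value table, as deposited, holds log10 ratios that matched the scanner's, turned to Lats2-/- over Lats2+/+, within 0.005. Scale and direction were thereby set, and each of its columns had a median of 0 over gene spots.

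Background was corrected with limma (3.58.1, R 4.3.3) by normexp at an offset of 50. Controls and 860 outlier gene spots were left out, loess was fitted within arrays, and log2 ratios were turned to Lats2-/- over Lats2+/+ and averaged over repeat spots and over the dye orientations of a litter. Log2 signals per extract followed Aquantile between arrays. A ratio understates differences of dim genes through the offset. Probes that stood well above background in 2 or more extracts of the 3 of a genotype and had a ratio in all 3 litters were kept (22638 of 41174; 4 lacked a litter ratio). The brightest kept probe stood for a gene. The litter was the replicate, and 3 litters limit the precision. limma's moderated test compared the 3 ratios with 0 (two-sided), and p-values were adjusted by Benjamini-Hochberg across kept probes. The study's criterion for these cells, a 2-fold size together with a t-test p below 0.05, was read with limma's unadjusted p and, as an alternative, with the methods' t-test on the litter ratios. Pairing follows from the litter numbers in the labels. Deviations of littermate extracts from their genotype means correlated with r of 0.460, 0.297 and 0.466 over the kept probes. Both extracts of a litter were on the same arrays and their signals share an average intensity, so these values cannot test the pairing. The fit was tested on simulated data.

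The 9 genes, the lists and the markers were chosen with earlier results of these data known. Named genes were every member, Lats2, from each list the genes at least 2-fold in 1 direction in all litters or with an unadjusted p under 0.05 (at most 6 by size), and the 5 genes most like Fos and Fosl1. Some genes that this rule names are not reported here. Alternatives were another offset, the processed intensities, the deposited log10 ratios, median centring, other filters, an unpaired fit, all 8 arrays with litter or slide as a random block, a dye term and leaving out each litter. Promoter sequences come from RefSeq (GRCm38.p6). Probe positions are those of the array files (mm8).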

Additional observations from a re-analysis of the deposited data

How the results depend on the processing

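The 2-fold size together with an unadjusted p below 0.05 held for 2 of the 9 genes, Fos and Junb, and for 1, Junb, with no filter on dim probes and in the methods' t-test. Leaving out 1 litter at a time gave 2 to 3 genes, not the same ones: Fos, Fosl1 and Junb without litter 112, and Junb, Atf3 and Maff without litter 116. At the adjusted threshold, 2 genes (Fos and Junb) passed with all 8 arrays and litter as a random block, and 1 (Junb) passed with a dye term added or with slide as a random block. These fits take the arrays rather than the litters as samples. Array-wide, 189 probes met the size and unadjusted p, of which 144 were higher in Lats2-/-, against 335 of 550 with processed signals and 335 of 545 with the deposited value table. The count was 305 with offset 16, 112 with no replicate block (an unpaired fit of the 6 extracts), 413 with litter as a random block, 399 with the dye term, 441 with slide as a random block, 71 in the methods' t-test and 260 to 373 with 1 litter left out. At the adjusted threshold 0 probes passed in limma, with 1549 at an unadjusted p under 0.05, and in those 3 fits 341, 202 and 717 passed in turn. Dropping the pairing changed no member's call. Mean ratios turned sign for 3 genes: with 1 litter left out Fosb ran from -0.018 (without 112) to 1.16, Fosl2 from -0.34 to 0.20 (0.0070 without 121 or within slide 1, 0.20 without 116) and Maff from -0.49 (without 121 or within slide 1) to 1.48 (-0.040 without 112), and Fosb was -0.0095 within slide 2. The mean ratios of Fos, Fosl1, Jun, Junb, Jund and Atf3 kept their direction under each alternative run. The cause of these changes was not tested. Each brightest member probe was well above background on all 8 arrays in both channels, but the sizes of the dim ones, Fos and Fosb, depend on the background correction.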
